A study of Mus musculus with 11 samples.

Results

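The 10 genes described here are a ligand, a receptor and 8 targets and regulators of the FGF-ERK pathway: Fgf4, Fgfr1, Spry1, Spry2, Spry4, Spred1, Dusp4, Dusp6, Etv4 and Etv5. They were chosen by symbol from the 23284 genes listed for each library, and all 10 were found in all 11 libraries and passed the filter on low values in each fit. The libraries came from mouse embryonic stem cells (ESCs) grown on gelatin in medium with serum and LIF. WT cells were compared with cells in which Tet1,2,3, the genes of the TET dioxygenases that oxidise 5-methylcytosine, had been knocked out (TKO). Each genotype was sampled untreated (0 h) and once α-amanitin had been present at 10 µg/ml for 4 h, with 2 libraries of ribodepleted total RNA per group. A further 3 libraries were made from polyadenylated RNA of WT cells with no treatment named (WT polyA). The TKO cells were a line made in earlier work, and the labels name neither a number of clones nor separate cultures for the replicates, so that p-values measure the spread between these libraries.

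FGF4 is the main FGF that ESCs secrete, and it signals in part through FGFR1 to RAS, RAF, MEK and the kinase ERK, a route known to prime ESCs to leave the naive pluripotent state. Active ERK induces its own brakes. The Sprouty proteins (Spry1, Spry2, Spry4) and the related Spred1 dampen the signal at the level of RAS and RAF, DUSP6 and DUSP4 remove phosphate from ERK in the cytoplasm and the nucleus, and ETV4 and ETV5 are ETS transcription factors whose genes are common readouts of FGF signalling. α-Amanitin inhibits RNA polymerase II, and under a full block an mRNA made before it would fall at the pace of its decay. How complete the block was at 4 h was not tested. TPM is a length-corrected share of the transcripts of a library. Under a full block, a transcript that decays like the typical one would therefore keep its TPM and one that decays faster would fall. A loss common to all transcripts cannot be seen.

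Because decay bears on levels after α-amanitin, 3′ UTR sites with the pentamer ATTTA, the core of AU-rich elements that bind decay factors, were looked up. They were read from the annotated transcripts of NCBIM37 (GENCODE vM1, the same assembly as mm9). Some of the sites are shown for Fgf4 and Dusp6, the members with the widest falls in WT, and for a pair of Sprouty genes that also fell. The pentamer of the site shown is in capitals with 10 bases on either side. Fgf4 had 6 sites (2 shown in capitals), Spry1 and Spry2 had 2 each (1 shown for each), and Dusp6 had 1. The first Fgf4 window also holds another of the gene's sites, in lower case before the capitals.
Fgf4 (chr7:152048946-152048970, plus strand): tatttaaattATTTAaatatgtata
Fgf4 (chr7:152048976-152049000, plus strand): acgcccaattATTTAtaattttatg
Spry1 (chr3:37543333-37543357, plus strand): tgtaaagaatATTTAttatgcgaat
Spry2 (chr14:106291311-106291335, minus strand): tgtaaagaatATTTAtttgaagttt
Dusp6 (chr10:98730056-98730080, plus strand): ttgagctggaATTTAttataagaat
The windows shown for Spry1 and Spry2 shared a run of 17 bases around the pentamer. This pair of sites had the longest shared run, the other pairs sharing 14, 9 and 9 bases. Per kb of 3′ UTR, the pentamer occurred 2.61 times in Fgf4, 1.73 in Spry1, 2.34 in Spry2, 1.98 in Spry4, 2.77 in Spred1, 1.8 in Dusp4 and 0.841 in Dusp6, against a median of 1.24 over 11159 tested genes with a 3′ UTR of at least 100 bases. Fgfr1 had 1.67 and Etv5 2.31 per kb, and the 3′ UTR of Etv4 (624 bases) had 0. At least 1 pentamer was in 69.5% of those genes and in every member but Etv4. The longer form TTATTTATT was in 7.7% of those genes and in none of the 10 members. Whether any of these sites bear on the changes after α-amanitin was not tested.

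The 250 bases before the annotated start of Fgf4 and Dusp6 are shown because these 2 members had the widest falls in WT. They come from RefSeq (GRCm38.p6), with the GC box GGGCGG and the CCAAT box in capitals on either strand.
Fgf4 (chr7:144861136-144861385, plus strand): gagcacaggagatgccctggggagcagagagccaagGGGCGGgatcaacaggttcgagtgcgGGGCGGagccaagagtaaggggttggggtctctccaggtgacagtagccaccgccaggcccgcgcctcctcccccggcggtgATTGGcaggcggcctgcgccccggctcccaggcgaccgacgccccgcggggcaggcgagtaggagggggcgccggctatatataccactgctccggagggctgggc
Dusp6 (chr10:99262981-99263230, plus strand): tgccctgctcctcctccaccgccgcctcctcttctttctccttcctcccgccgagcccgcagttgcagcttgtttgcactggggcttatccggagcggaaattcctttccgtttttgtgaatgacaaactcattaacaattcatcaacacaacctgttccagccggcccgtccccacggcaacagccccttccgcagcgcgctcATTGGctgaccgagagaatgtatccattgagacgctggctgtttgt
Windows were found for 6 members, 7 windows in all, among 32851 windows of the same length. GGGCGG was in 32.7% and CCAAT in 33.8% of all windows. The letters CCGGAA, a form of ETS site, were in 12% of all windows and in none of the 7. This says only that these letters are not in these bases, as other forms of ETS site were not searched for.

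Before treatment the members differed widely in deposited TPM in WT ribodepleted libraries. Fgf4 was highest at 158.5 ± 0.729 TPM (SD, n = 2), followed by Etv5, Etv4, Spred1, Spry2 and Dusp6, then by Spry4, Dusp4 and Fgfr1, and Spry1 was lowest at 13.5 ± 0.634 TPM (SD, n = 2). No neighbours in this order overlapped between libraries. The order differed in WT polyA libraries, where Etv4 (222 to 234 TPM), Spry2 (218 to 224 TPM) and Fgf4 (210 to 225 TPM) overlapped at the top and Dusp4 came last at 11.7 to 13.2 TPM. After α-amanitin in WT, Etv5 (146 to 151 TPM) and Etv4 (141 to 144 TPM) led, followed by Spred1 and then Fgf4 (78.4 to 87 TPM). In untreated TKO cells Dusp6 was second, at 118 to 123 TPM. The least sampled value was Spry1 in replicate 2 of TKO at 4 h, with 269 recovered reads.

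**Figure D1:**
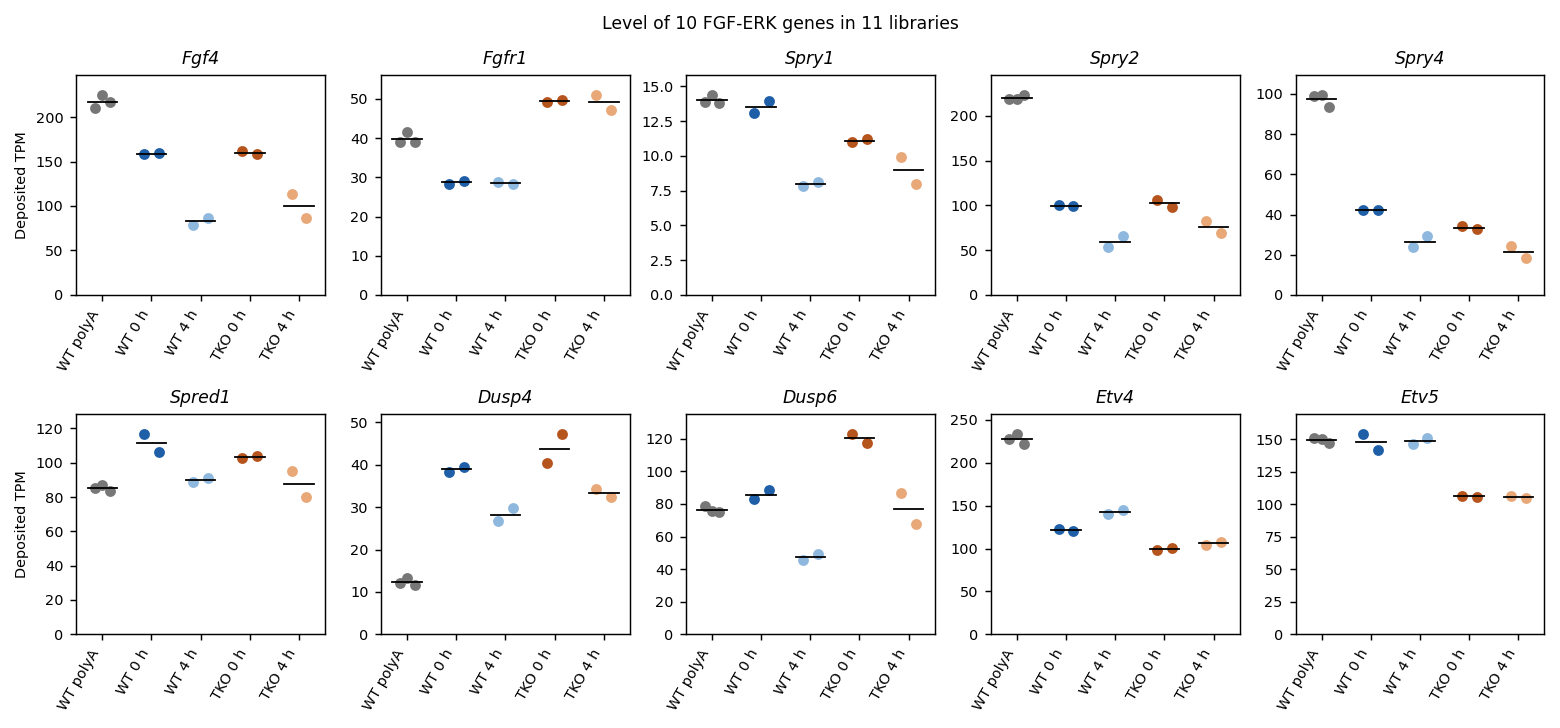
Deposited TPM (vertical axis, from 0, its own scale per gene) of the 10 members in the 11 libraries, by group. Points are libraries and bars are group means. Fgf4 and Dusp6 drop at 4 h in both genotypes, Fgfr1 is higher and Etv5 lower in the TKO libraries, and Spry2 and Spry4 are highest, and Dusp4 lowest, in WT polyA.

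The libraries held 72639837 to 82129168 recovered reads in WT polyA and 25507874 to 29781366 in the ribodepleted groups. Of the targeted genes, Tet1 was at 22.5% and Tet2 at 14.4% of the WT level in TKO at 0 h (adjusted p = 1.45e-06 and 3.25e-07, limma), with reads left in every TKO library, and Tet3 was low throughout (1.07 to 2.65 TPM as group means) and did not separate the genotypes. The 6 ESC markers were above 1 TPM in every group, Pou5f1 being the highest. Their summed TPM was 2200 to 2240 in WT and 1540 to 1550 in TKO at 0 h, 2060 to 2110 and 1490 to 1510 at 4 h, and 2800 to 2890 in WT polyA. Summed markers of primitive endoderm (4.05 to 9.87 TPM over all libraries), fibroblasts (2.81 to 13 TPM) and mesoderm (0.757 to 3.58 TPM) were low. Of the 6 fibroblast markers in WT at 0 h, 4 had a mean above 1 TPM and 1, Lum, was at 0. Their sum at 0 h was 7.17 to 7.52 TPM in WT and 11.6 to 11.8 TPM in TKO. Trophectoderm markers summed to 32.2 to 60.2 TPM, mostly from Tfap2c, and primed epiblast markers to 193 to 336 TPM, mostly from Dnmt3b. In these bulk libraries, fewer cells of a type and less RNA per cell cannot be told apart.

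To ask which of these mRNAs lose or gain share after α-amanitin, WT libraries at 4 h were compared with those at 0 h. The ligand, the Sprouty genes and both phosphatases fell, and the 2 ETS factors and the receptor rose slightly. In the limma fit, 6 of the 10 members passed an adjusted p of 0.05 with a lower value and 3 with a higher value, beside 15.8% and 21.9% of all 12467 genes tested. The median change of the members was -0.40 on the log2 scale, against 0.03 for all genes. A change over 1.5-fold as well, termed called below, was reached downward by 2 members and by 2.01% of all genes. Values below are scaled TPM, the TPM divided by the size factor of the library, unless named as deposited.

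Fgf4 was at 153 and 160 in untreated and at 87.9 and 94.5 in treated WT libraries. The groups stood well apart, and 58.2% of the level was left (log2 change -0.78, SE 0.089, adjusted p = 0.00278). Dusp6 went from 80.5 and 89.2 to 51.2 and 53.3, so that 61.6% was left (log2 change -0.69, SE 0.087, adjusted p = 0.00382). Both were called.

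The Sprouty genes moved in the same direction within a narrow range. Spry2, at 96.9 and 99.8 before, was at 60.1 and 71 after α-amanitin. Its change of -0.58 (SE 0.084, adjusted p = 0.00533) lay just short of 1.5-fold. Spry1, the lowest member, went from 12.7 and 14.1 to 8.76 and 8.86 (log2 change -0.55, SE 0.083, adjusted p = 0.00568). Spry4 went from 41 and 42.6 to 26.5 and 31.95, with more spread at 4 h (log2 change -0.51, SE 0.108, adjusted p = 0.0106). Each of the 3 genes had both treated libraries below both untreated ones. Spred1, the related RAS-pathway inhibitor, was at 113 and 107 before and 99.7 and 99.2 after, which left 90.4% and did not pass (log2 change -0.14, adjusted p = 0.0796). The nuclear phosphatase gene Dusp4 passed with a smaller change than Dusp6, from 37.1 and 39.85 to 30 and 32.3 (log2 change -0.30, SE 0.075, adjusted p = 0.0175).

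The ETS factors went the other way. Etv4 was at 119 and 121 in untreated and 158 and 157 in treated libraries, 131% of its untreated level (log2 change 0.39, SE 0.050, adjusted p = 0.00395). Etv5 rose from 149 and 143 to 164 in both treated libraries (log2 change 0.17, SE 0.045, adjusted p = 0.0219) and Fgfr1 from 27.5 and 29.2 to 32.45 and 30.7 (log2 change 0.15, SE 0.051, adjusted p = 0.0486). A rise here is one in share of the transcripts left. The rises of Etv5 and Fgfr1 depended on the scaling, since without size factors (median over all tested genes -0.11) their changes were 0.01 (adjusted p = 0.933) and -0.01 (adjusted p = 0.952), whereas Etv4 stayed higher (0.23). Both also missed the threshold when any 1 of the 4 WT libraries was left out, and over the 10 alternatives to the limma fit Etv5 passed in 8 and Fgfr1 in 3. Without WT 4 h replicate 1, 5 members passed, and Spry4 and Dusp4 were no longer among them. Without WT 0 h replicate 1, 4 members were called lower, as were 4 without WT 4 h replicate 2. Of the 6 ESC markers, Pou5f1 passed higher (log2 change 0.33) and Sox2 (-0.59) and Zfp42 (-0.29) lower in the same contrast.

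The same comparison in TKO cells gave the same directions, with fewer members past the adjusted threshold. The limma fit pools the spread, so each member had the same SE in both genotypes. An unadjusted p under 0.05 was reached in TKO by 8 members, beside 3110 of 12467 genes. In WT it was reached by 10 members, beside 6116 genes. The 7 members whose mean was lower at 4 h in WT were also lower in TKO, but only Fgf4 passed, beside 0.265% of all genes that passed lower, 0% that passed higher and 0.16% called lower. Untreated TKO libraries held Fgf4 at 150 and 146, and the treated ones at 109 and 88 (log2 change -0.59, SE 0.089, adjusted p = 0.0495). Dusp6 lay at 114 and 108 before and 83.3 and 68.8 after (log2 change -0.55, SE 0.087, adjusted p = 0.0525), and Spry4 at 31.8 and 30.05 before and 23.4 and 18.8 after (log2 change -0.54, adjusted p = 0.0836). In all 3 genes replicate 1 at 4 h was the higher of the 2 treated libraries. The other members not passing were Spry2 (-0.33, adjusted p = 0.114), Dusp4 (-0.29, adjusted p = 0.118), Spry1 (-0.20, adjusted p = 0.189), Spred1 (-0.15, adjusted p = 0.175), Etv4 (0.18, adjusted p = 0.121), Etv5 (0.09, adjusted p = 0.255) and Fgfr1 (0.08, adjusted p = 0.327), and each had treated libraries that did not overlap the untreated ones.

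The count in TKO rested on single libraries. Without TKO 4 h replicate 1, 7 members passed (6 lower and 1 higher), with Fgf4 at -0.74, Spry4 at -0.69 and Dusp6 at -0.68. Leaving out any other of the 8 libraries, WT ones included, left 0 members past the threshold, and Fgf4 then lay between -0.61 and -0.43. With limma voom on recovered reads, 6 members passed (5 lower and 1 higher). Over 2 TKO libraries at 4 h, the share of the 0 h level left was 74% and 59.5% for Fgf4, 74.9% and 61.8% for Dusp6 and 75.7% and 60.7% for Spry4. In WT the corresponding shares were 56.1% and 60.3%, 60.3% and 62.8%, and 63.5% and 76.5%.

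**Figure D2:**
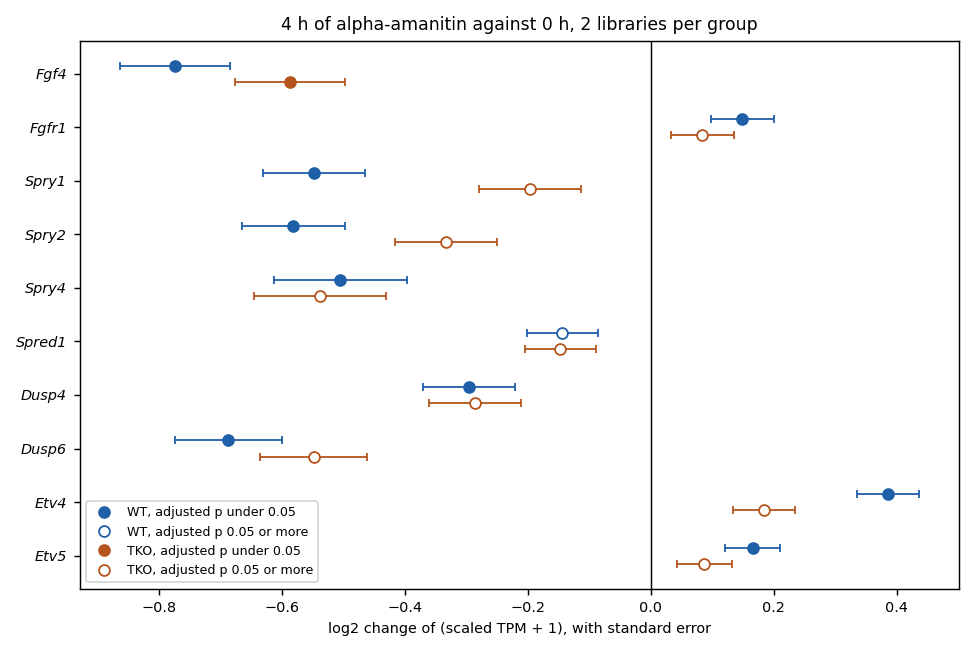
Change from 0 h to 4 h of α-amanitin for the 10 members (horizontal axis, log2 of scaled TPM + 1, bars are standard errors from the limma fit), WT in blue and TKO in orange, 2 libraries per group. Filled points passed an adjusted p of 0.05. Fgf4 and Dusp6 lie farthest to the left in WT at -0.78 and -0.69, Etv4 farthest to the right at 0.39, and Fgf4 is the only filled TKO point.

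Whether the response to α-amanitin differs between the genotypes was tested as the interaction. It passed for 0 of 10 members and for 0% of all genes upward and 0% downward in limma, while 2 members and 938 of 12467 genes had an unadjusted p under 0.05, and limma voom on recovered reads also gave 0. The 2 members were Spry1, whose fall was 0.35 smaller in TKO (95% interval 0.08 to 0.62, adjusted p = 0.662), and Etv4, whose rise was smaller, with a difference of -0.20 (95% interval -0.36 to -0.04, adjusted p = 0.662). For Fgf4 the difference was 0.19 with an interval of -0.10 to 0.48, and for Dusp6 0.14 with an interval of -0.14 to 0.42. For Spry4 the interval ran from -0.38 to 0.32, so that a difference of that size in either direction was within the error. The difference was 0.25 for Spry2 (interval -0.02 to 0.52), -0.003 for Spred1 (-0.19 to 0.18) and 0.01 for Dusp4 (-0.23 to 0.25). It was -0.08 for Etv5 (-0.22 to 0.07) and -0.07 for Fgfr1 (-0.23 to 0.10). A difference between the genotypes was thus not shown for any member, nor were the responses shown to be equal.

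The level of each member was then compared between TKO and WT cells. At 0 h the receptor Fgfr1 and the phosphatase gene Dusp6 were higher, and Etv5, Etv4, Spry4, Spry1 and Spred1 were lower, while Fgf4, Spry2 and Dusp4 did not pass. That is 2 members higher and 5 lower, beside 27.8% and 28.2% of all genes. One member, Fgfr1, was called higher, as were 10.5% of all genes. The contrasts at 0 h and after α-amanitin share their libraries with the comparisons above.

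At 0 h, Fgfr1 was at 27.5 and 29.2 in WT against 45.8 and 45.85 in TKO, 162% of the WT level (log2 change 0.67, SE 0.051, adjusted p = 1.29e-05). After α-amanitin these were 32.45 and 30.7 against 49 and 48.2 (log2 change 0.61, SE 0.051, adjusted p = 2.05e-05). The 4 TKO libraries thus all lay above the 4 WT libraries. Dusp6 was at 131% of the WT level at 0 h (114 and 108 against 80.5 and 89.2, log2 change 0.39, adjusted p = 0.00493) and at 146% at 4 h (83.3 and 68.8 against 51.2 and 53.3, log2 change 0.53, adjusted p = 0.000854).

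Etv5 showed the clearest lower level. Untreated, it stood at 149 and 143 in WT against 98.8 and 97.4 in TKO (log2 change -0.57, SE 0.045, adjusted p = 1.54e-05). In treated libraries it stood at 164 against 102 and 107 (log2 change -0.65, SE 0.045, adjusted p = 7.59e-06), and there it was called. Etv4, its close relative, was at 76.9% of the WT level at 0 h (log2 change -0.37, adjusted p = 0.00031) and at 66.9% at 4 h (log2 change -0.58, adjusted p = 2.49e-05). Spry4 was lower at both times (log2 change -0.42 and -0.45, adjusted p = 0.00994 and 0.00629) and Spry1 at 0 h alone (10.2 and 10.3 against 12.7 and 14.1, log2 change -0.35, adjusted p = 0.00665), its 4 h value being 0.00 (adjusted p = 0.986). With deposited TPM and no size factors none of these 3 passed (adjusted p = 0.0573 and 0.0699 for Spry4 at 0 h and 4 h and 0.0534 for Spry1 at 0 h). Spry4 at 0 h also missed the threshold without TKO 0 h replicate 2 (adjusted p = 0.0528) or WT 0 h replicate 2 (0.0501). Spry2 was at 98.6 and 90.65 in TKO and 96.9 and 99.8 in WT at 0 h, so that the groups overlapped (log2 change -0.06, adjusted p = 0.592), as they did at 4 h (log2 change 0.19, adjusted p = 0.0759).

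Fgf4 itself was nearly level between the genotypes, at -0.08 at 0 h (95% interval -0.29 to 0.12, adjusted p = 0.452, and 0.01 without size factors) and 0.11 at 4 h (95% interval -0.10 to 0.31, adjusted p = 0.338). For Dusp4 the values were 0.07 and 0.08 (adjusted p = 0.46 and 0.395). Spred1 was lower by a small margin at both times (log2 change -0.20 and -0.21, adjusted p = 0.0162 and 0.0142) but not without size factors, where its 4 h value was -0.05 (adjusted p = 0.615). It passed in 5 of the 8 fits with 1 library left out at each time, missing at 0 h without either TKO 0 h library or WT 0 h replicate 1 and at 4 h without TKO 4 h replicate 2 or either WT 4 h library (adjusted p up to 0.0884 and 0.0596). At 4 h, 2 members passed higher and 4 lower, beside 29.1% and 30.3% of all genes. Fgfr1 was called higher, beside 11% of all genes, and Etv5 lower, beside 5.82%. Without TKO 4 h replicate 2, 4 members were called, Dusp6 at 0.67 and Etv4 at -0.64 being added, and without WT 0 h replicate 2 Etv5 was called at 0 h (-0.61). With WT 4 h replicate 2 left out, Fgfr1 at 4 h was at 0.56, just under 1.5-fold, with an adjusted p of 0.000381. ESC markers moved with genotype, 5 of the 6 passing lower in TKO at 0 h, Zfp42 by the widest margin (log2 change -2.08), and the part of cell state in the members' differences was not tested. Of the tested markers of other cell types at 0 h, 2 passed higher and 2 lower in TKO for primed epiblast (of 5), 1 and 1 for primitive endoderm (of 2), 2 and 0 for fibroblasts (of 3), 1 and 0 for trophectoderm (of 3) and 0 for mesoderm (of 1).

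**Figure D3:**
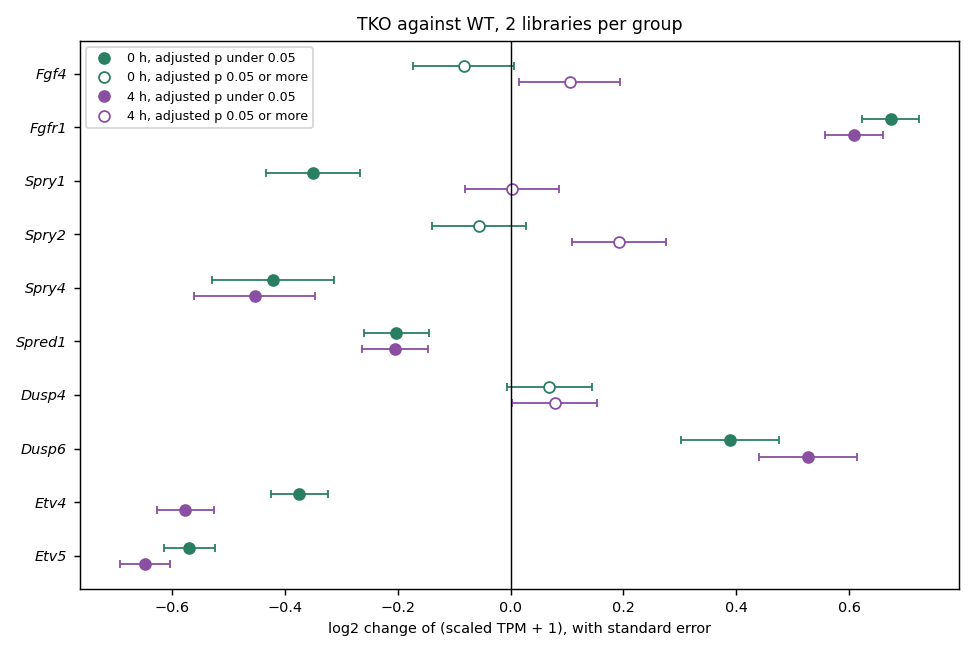
Difference between TKO and WT for the 10 members at 0 h (green) and after 4 h of α-amanitin (purple), on the horizontal axis as log2 of scaled TPM + 1 with standard errors, 2 libraries per group. Filled points passed an adjusted p of 0.05. Fgfr1 lies to the right at 0.67 and 0.61, Etv5 to the left at -0.57 and -0.65, and Spry1 is filled at 0 h and at 0.00 at 4 h.

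In a list of 90 further genes of the pathway, 68 passed the filter on low values in the ribodepleted fit. After α-amanitin in WT, 12 of them rose and 20 fell, beside 21.9% and 15.8% of all genes. The 11 tested kinases and scaffolds of the RAF-MEK-ERK cascade had a median of 0.17, with 6 passing higher and 0 lower. The 16 other feedback regulators had a median of -0.20, with 1 higher and 7 lower, and the 16 other genes of ERK-dependent transcription a median of -0.21, with 1 higher and 7 lower. Of the 11 adaptors and RAS activators, 3 rose and 3 fell, of the 8 receptors and coreceptors 1 rose and 2 fell, and of the 6 tested ligands 1 fell.

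Of the wider list, 4 genes were called lower and 0 higher in WT. They were Egr1, an immediate-early transcription factor gene (4.25 ± 1.07 to 2.06 ± 0.332, SD, n = 2, log2 change -0.77, adjusted p = 0.00749), Dusp1, a nuclear MAP kinase phosphatase gene (22.1 ± 0.926 to 12.9 ± 0.0287, log2 change -0.73, adjusted p = 0.00214), the ligand gene Fgf15 (11 ± 0.978 to 6.61 ± 0.161, log2 change -0.65, adjusted p = 0.00515) and Myc (log2 change -0.64, adjusted p = 0.00217), which is named although it falls outside the rule for naming. The members called lower, Fgf4 at -0.78 and Dusp6 at -0.69, were of like size. All of these genes had passed the same fold limit, so a like size is partly built into the choice. In TKO 1 of the 68 passed, Dusp1 (22.7 ± 1.49 to 14.55 ± 1.2, log2 change -0.61, adjusted p = 0.0445).

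Between the genotypes at 0 h, 26 of the 68 genes were higher and 16 lower in TKO, of which 15 and 7 were called. Over all 12467 genes 27.8% were higher and 28.2% lower, and 10.5% were called higher and 677 genes called lower. The Dusp genes of this list called higher were Dusp14 (log2 change 1.72), Dusp9 (1.17), an ERK phosphatase gene expressed in ESCs, Dusp5 (1.05) and Dusp10 (1.04), with adjusted p of 0.000216 or less in limma. Other Dusp genes lay closer between TKO and WT in mean deposited TPM, such as Dusp1 (24.5 and 22.35), Dusp3 (10.3 and 9.02) and Dusp7 (13.6 and 11.7). Dusp9 stood at 129 ± 1.33 in TKO against 56.8 ± 2.49 in WT (SD, n = 2), which in TKO put it above Dusp6. The transcription factor genes Ets1 and Fosl1 were each higher by 1.27, from low levels in WT (2.66 and 0.612). The ligands split, Fgf5 (1.11) and Fgf13 (0.83) being higher and Fgf15 (-1.76), Fgf17 (-1.09) and Fgf18 (-0.62) lower, and Fgf5 was under 1 in WT at 0.389. Etv1, the third gene of the Etv4 and Etv5 family, was lower with them (-0.63, adjusted p = 0.000196), as was the receptor inhibitor gene Lrig1 (-0.98). At 4 h, 28 were higher and 16 lower, beside 29.1% and 30.3% of all genes, led by Dusp14 (1.69), Ets1 (1.22) and the coreceptor gene Sdc4 (1.196), and by Fgf15 (-1.33), Fgf17 (-1.23) and Rps6ka2 (-0.84), with Dusp5, Dusp9, Dusp10, Dusp16, Fgf5 and Fgf13 called higher and Etv1 lower. In the interaction 0 of the 68 passed and 12 had an unadjusted p under 0.05, beside 938 of all 12467 genes.

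**Figure D4:**
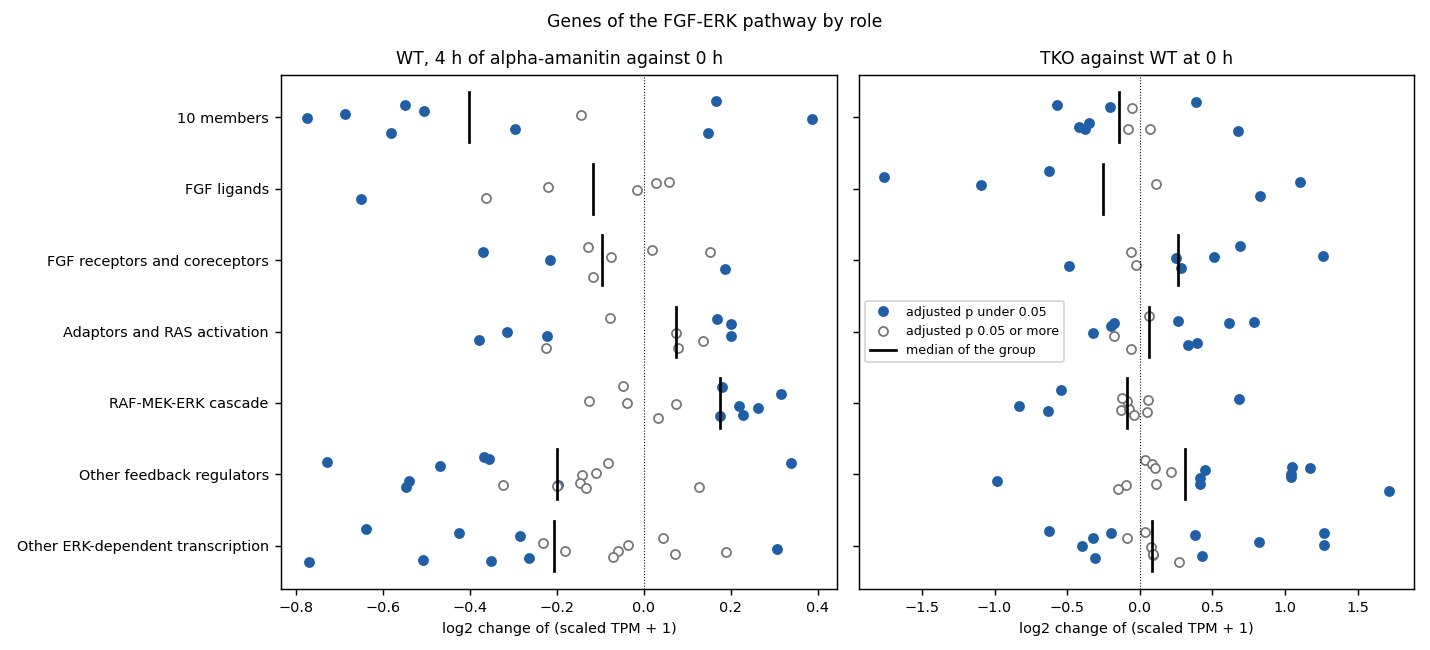
Log2 change (horizontal axis) of the members and the tested genes of the wider FGF-ERK list by role (rows), for α-amanitin in WT on the left and TKO against WT at 0 h on the right. Points are genes, filled where the adjusted p was under 0.05, and black bars are medians. On the left the median of the cascade lies at 0.17 and that of the members at -0.40. On the right the other feedback regulators have a median of 0.31 and the members one of -0.14.

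Over the 8 ribodepleted libraries, correlations between members had either sign. Fgf4 went with Spry2 (Pearson r = 0.965), Spry1 (0.872), Dusp4 (0.871) and Dusp6 (0.82), whereas Etv4 went with Etv5 (0.934) and against Dusp6 (-0.915), and Fgfr1 went against Etv5 (-0.919). Spry4 went with Spred1 (0.927). These correlations describe 4 groups of 2 libraries and carry no test. Among all other tested genes, the 3 with a profile most like that of Fgf4 were Mcl1 (r = 0.997), Arv1 (0.996) and 1500012F01Rik (0.996), with changes of -0.36, -0.45 and -0.91 after α-amanitin in WT. The 3 most like Dusp6 were Obfc2a (0.993), Txnip (0.990) and Rnd3 (0.990), with differences between TKO and WT at 0 h of 0.26, 0.28 and 0.34. Both sets were picked over these same libraries, so changes in the direction of Fgf4 or Dusp6 are built into the choice.

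WT polyA libraries were compared with untreated WT ribodepleted libraries in a separate fit of 12478 genes. RNA selection, depth and any difference between the cultures cannot be told apart in this contrast. Markers moved in it too. Of the 6 ESC markers 4 passed higher and 2 lower, with Zfp42 at -1.65, and among markers of other cell types Lef1 (2.52), Sox7 (1.24), Eomes (1.101) and Gata6 (0.73) were called higher and Col3a1 (-1.29), Tfap2c (-1.02) and Dnmt3b (-0.88) lower. Their part in the members' differences was not tested. Here 5 members passed higher and 3 lower in WT polyA, beside 40.2% and 40.8% of all genes, and 3 were called higher and 1 lower, beside 18.7% and 16.4%. The members did not shift together by family. Spry4 was at 98.8, 99.65 and 93.4 deposited TPM in WT polyA against 42.3 and 42.2 (log2 change 1.08, SE 0.039, adjusted p = 4.64e-08), and Spry2 at 218.5, 218.4 and 223.6 against 99.9 and 99 (log2 change 1.04, SE 0.038, adjusted p = 4.8e-08). Spry1, at 13.9, 14.4 and 13.8 against 13.1 and 14, overlapped between the library types (log2 change -0.05, adjusted p = 0.47). Etv4 was higher (log2 change 0.80, adjusted p = 1.2e-07), but Etv5 did not pass (-0.08, adjusted p = 0.0574).

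Dusp4 stood out with 12.1, 13.2 and 11.65 deposited TPM in WT polyA against 38.3 and 39.5, 29.4% of the ribodepleted level once scaled (log2 change -1.68, SE 0.056, adjusted p = 3e-08). Dusp6 (-0.26, adjusted p = 0.0011) and Spred1 (-0.48, adjusted p = 4.46e-06) fell short of 1.5-fold downward, and Fgf4 (0.35, adjusted p = 5.49e-05) and Fgfr1 (0.36, adjusted p = 8.25e-05) fell short of it upward. Of 69 tested genes of the wider list, 30 were higher and 23 lower, beside 40.2% and 40.8% of all genes. Of these, 20 and 12 were called, beside 18.7% and 16.4% of all genes. The widest rises were in Phlda1 (3.06), the Spred1 relative Spred2 (1.90) and Elk3 (1.80), and the widest falls in Fgfr2 (-2.40), Fgf18 (-2.01) and Ets1 (-1.50). The other called genes of the members' families were Fgf1, Fgf10, Fgf11, Fgf13, Fgf17, Fgfr3, Fgfr4, Dusp1, Dusp9 and Dusp16, which were higher, and Fgf15 and Dusp3, which were lower.

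**Figure D5:**
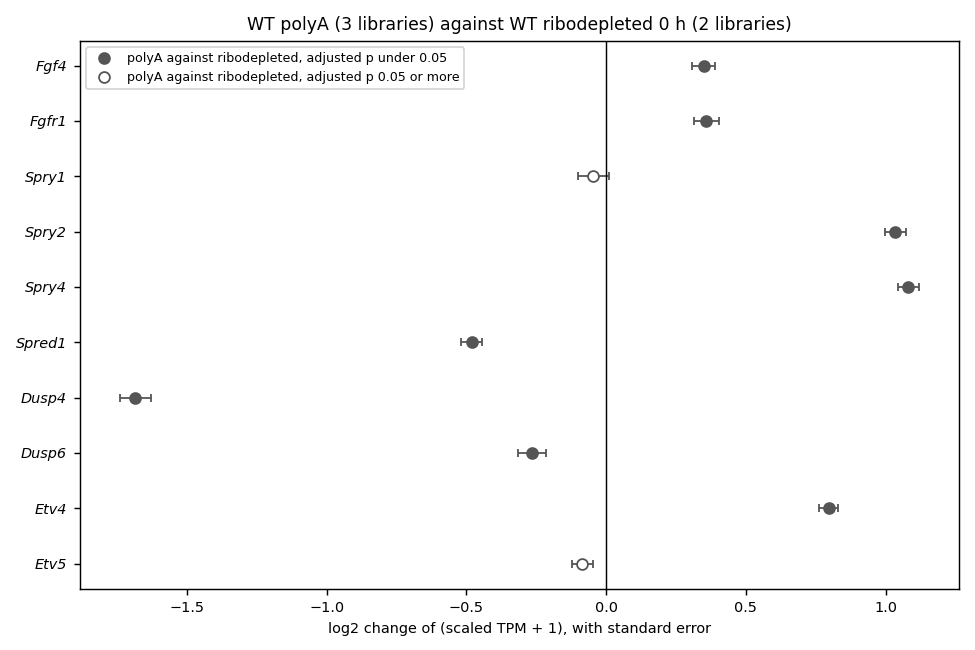
Difference between 3 WT polyA and 2 untreated WT ribodepleted libraries for the 10 members (horizontal axis, log2 of scaled TPM + 1, with standard errors). Filled points passed an adjusted p of 0.05. Spry4 and Spry2 lie at 1.08 and 1.04, Dusp4 at -1.68, and Spry1 and Etv5 are open.

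Fgfr1 (chromosome 8, 26624126 to 26686186 in NCBIM37, plus strand) is the only member whose span overlaps another annotated gene, the lincRNA Gm16159 on the opposite strand (26659133 to 26666555). Since the strand setting of the counting was not given in the sources used here, reads of that gene may be in its value. Fgf4 (chromosome 7, 152047291 to 152051148, plus strand), Dusp6 (chromosome 10, 98725865 to 98730122, plus strand) and Spry2 (chromosome 14, 106291166 to 106296036, minus strand) are compact genes of 3858, 4258 and 4871 bases, and Etv5 (chromosome 16, 22381382 to 22439792, minus strand), Fgfr1 and Spred1 span 58411, 62061 and 60906 bases.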

How the data were processed

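RNA-seq of 11 mouse ESC libraries was analysed. The authors deposited 1 TPM value per gene and library. Following their methods, AfterQC took out low-complexity reads and Bowtie2 those matching rRNA or tRNA, the rest were trimmed (Trimmomatic), mapped to mm9 and its RefSeq genes by STAR, and counted with HTSeq. Versions and strand setting are not given in the sources used here. Because TPM and not counts were deposited, limma replaced the DESeq2 test that the study used on counts. Each library's TPM were scaled by a size factor (median of ratios), and limma 3.58.1 (R 4.3.3, lmFit, eBayes with trend, no block) was run on log2(scaled TPM + 1) of genes with a mean above 1, with 4 groups in 1 fit and the polyA contrast in another. Fold changes are on that scale, which understates low genes. P-values are two-sided and Benjamini-Hochberg adjusted over all tested genes (threshold 0.05). Whole reads were recovered from the TPM steps for 100% of the 19869 genes above 0 (tolerance 1e-04). Recovered reads give depth, entered limma voom, an alternative added once the data had been seen, and showed no repeated library (chi-square per degree of freedom at least 1.56 between replicates). The fit was tested on simulated data. Precision rests on 2 or 3 libraries per group.

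The members, the wider list, the marker lists and the alternatives were chosen with earlier results of these data known. All members were named in each comparison. From the wider list came the 3 called genes with the widest rise and fall, plus called genes of the members' families, and from all genes the 3 most like Fgf4 and Dusp6 by Pearson r.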

Additional observations from a re-analysis of the deposited data

How the results depend on the processing

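With 2 libraries per group, the tests rest on a spread pooled over groups, and a library left alone in its group is assumed to vary like the others. Called members below are those past both limits, and passed members those past the adjusted p alone. In WT after α-amanitin, 5 were called with deposited TPM, 4 with a pseudocount of 0.1 TPM, 4 with limma voom on recovered reads and 9 with no fold limit. In TKO after α-amanitin, 0 were called and 0 passed with a pseudocount of 0.1 TPM, no filter on low values, no variance trend, only the groups compared, or a replicate block. Deposited TPM and quantile normalisation each gave 2 called and 2 passed there, a pseudocount of 5 TPM 0 called and 2 passed, a mean above 5 TPM 2 passed and voom 6 passed. Between genotypes at 0 h, 7 were called with no fold limit and 4 passed with deposited TPM. At 4 h, 6 were called with no fold limit and 1 with a pseudocount of 5 TPM. In WT polyA, 8 were called with no fold limit. The cause of these shifts was not tested.

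Signs that turned belonged to changes that had not passed, except that of Fgfr1 in WT. With deposited TPM the α-amanitin change was -0.0057 for Fgfr1 in WT and -0.012 for Fgfr1 and -0.01 for Etv5 in TKO, the interaction 0.0266 for Spry4 and 0.0584 for Spred1, the genotype difference at 0 h 0.0121 for Fgf4 and 0.0389 for Spry2, and the polyA difference 0.0513 for Spry1 and 0.0183 for Etv5. With quantile normalisation the interaction was 0.0589 for Spred1 and -0.0182 for Dusp4, the genotype difference 0.053 for Fgf4 and 0.0113 for Spry2 at 0 h and -0.1115 for Spry1 at 4 h, and the polyA difference 0.015 for Spry1. With voom Spry1 was at -0.0048 between genotypes at 4 h.

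Leaving out each library in turn gave 2 to 4 called and 5 to 10 passed members in WT, 0 to 3 called and 0 to 7 passed in TKO, 1 to 2 called between genotypes at 0 h and 2 to 4 at 4 h. The interaction then ranged from -0.1796 to 0.1197 for Spry4, -0.0785 to 0.0786 for Spred1 and -0.0881 to 0.124 for Dusp4. The genotype difference ranged from -0.1199 to 0.0001 for Spry2 and -0.0412 to 0.171 for Dusp4 at 0 h, and from -0.046 to 0.2641 for Fgf4 and -0.0941 to 0.1055 for Spry1 at 4 h. The polyA difference of Spry1 ranged from -0.1259 to 0.0162.

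The replicate numbers in the titles are not stated to pair libraries, and ribodepleted libraries that share a number deviated from their groups with correlations across genes of -0.044 to 0.119. Between WT polyA and WT 0 h libraries these were 0.098 for replicate 1 and -0.092 for replicate 2. Under a replicate block, the adjusted p became 0.0628 for Fgf4 in TKO and 0.0581 for Fgfr1 in WT, and 8 members passed in WT. The block changed no other call of a member.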
